A study of Caenorhabditis elegans with 2 samples.

Results

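The regions described are the loci of small nucleolar RNA (snoRNA) genes in *Caenorhabditis elegans*. They are the 346 nuclear genes with the biotype snoRNA in the Ensembl annotation of WBcel235, of 46890 nuclear genes in all, each extended by 200 bp on both sides. The genes are 54 to 344 bp long, with a median of 130 bp. By position, 169 lie in an intron of a protein-coding gene (intronic), 142 of them on the strand of the host and 27 on the other. A further 108 overlap no other gene (outside genes), and the remaining 69 (other) consist of 53 that meet a protein-coding exon and 16 that overlap only a noncoding gene or pseudogene.

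The chromatin came from whole young adults of mixed sex, 66 hours old, which had been synchronised as starved L1 larvae after bleaching. All animals were of strain OP724, with the allele unc-119(tm4063) and the integrated transgene wgIs724, which carries attf-5 fused to TY1, EGFP and 3xFLAG, and a wild-type copy of unc-119. ATTF-5 is named as an AT-hook transcription factor, and its tagged form was recovered with an antibody against GFP (ChIP-seq). The design had 1 group with 2 biological replicates, which the labels number 1 and 3, and no second genotype or treatment. The protein followed is the tagged product of a transgene, and signal from all tissues is mixed. The values are the authors' peak lists, with 30000 regions in replicate 1, 28299 in replicate 3 and 30000 in the pooled list. The thresholded list holds 3331 regions that passed the authors' threshold on reproducibility, and was made from both replicates and the pool. Each region has a summit and a signal value, a measure of enrichment on the authors' own scale that differs between lists. The lowest −log10 q was 3.09 in the thresholded list and 0.0177 to 0.0608 in the other 3, so regions of those can be background. The number of reads behind the lists is not given in the labels.

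snoRNAs guide the chemical modification of ribosomal RNA in the nucleolus. Those with boxes C and D direct 2′-O-methylation, and those with boxes H and ACA direct the conversion of uridine to pseudouridine. Many animal snoRNAs are cut from the introns of host genes, whereas others are transcribed from promoters of their own by RNA polymerase II or III. In tRNA genes, RNA polymerase III is recruited by an internal A box and B box bound by TFIIIC, and it stops at a run of T on the coding strand.

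The sequence just before some of the snoRNA genes with summits held letters that match an A box and a B box. Whether TFIIIC or RNA polymerase III uses these leaders was not tested. The lines that follow give the 100 bases before the annotated 5′ end of 6 of them, the strongest 3 and 3 others that differ in position and host, read on the snoRNA strand from RefSeq's WBcel235 sequence. Capitals mark the match to the A box (TNG, 3 further bases, AG, 1 or 2 further bases, GG) and to the B box (GNTCNANNC).
C51F7.3, V:12303608-12303707, + strand: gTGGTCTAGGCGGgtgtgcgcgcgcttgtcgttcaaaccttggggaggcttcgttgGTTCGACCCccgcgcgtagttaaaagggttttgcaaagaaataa
T03F7.8, V:11314158-11314257, + strand: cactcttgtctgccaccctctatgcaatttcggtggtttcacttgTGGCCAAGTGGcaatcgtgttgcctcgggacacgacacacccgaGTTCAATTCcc
W03C9.9, II:11960798-11960897, + strand: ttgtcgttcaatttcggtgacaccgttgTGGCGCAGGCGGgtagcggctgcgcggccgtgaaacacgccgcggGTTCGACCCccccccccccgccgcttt
F55A11.10, V:11782892-11782991, + strand: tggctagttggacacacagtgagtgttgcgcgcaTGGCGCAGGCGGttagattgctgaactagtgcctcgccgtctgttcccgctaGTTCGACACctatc
F32E10.10, IV:7574022-7574121, + strand: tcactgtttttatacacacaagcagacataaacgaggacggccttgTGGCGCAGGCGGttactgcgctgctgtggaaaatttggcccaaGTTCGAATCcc
C27H6.5, V:9970272-9970371, - strand: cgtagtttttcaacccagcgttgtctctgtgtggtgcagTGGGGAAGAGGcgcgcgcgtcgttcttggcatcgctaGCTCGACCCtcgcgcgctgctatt
These letters were searched on the snoRNA strand with 15 to 60 bases between the boxes, and where several pairs matched, the one nearest the gene is marked. The pair was chosen as a motif after the leaders of snoRNA genes with summits had been read, so its counts describe these genes and support nothing by themselves.

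Not all strong loci had such a leader. For contrast, the next lines give the summit with 50 bases on either side at ZK994.7, the strongest snoRNA locus, at F09G2.14, the strongest one outside genes, and at C02F5.15. None has the box pair in its leader. Capitals mark bases annotated as snoRNA.
ZK994.7, V:8500519-8500619, + strand: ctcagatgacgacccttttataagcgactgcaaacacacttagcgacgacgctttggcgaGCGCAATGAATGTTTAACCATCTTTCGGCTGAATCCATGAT
F09G2.14, V:7196635-7196735, - strand: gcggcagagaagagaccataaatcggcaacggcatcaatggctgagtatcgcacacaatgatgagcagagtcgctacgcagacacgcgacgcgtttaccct
C02F5.15, III:8227644-8227744, + strand: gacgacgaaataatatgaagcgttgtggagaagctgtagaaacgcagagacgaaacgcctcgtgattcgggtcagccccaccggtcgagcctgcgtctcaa
The summit at ZK994.7 lay 10 bases before the snoRNA, whereas those at F09G2.14 and C02F5.15 lay in promoter windows of protein-coding genes. Such a window starts 1000 bp before the annotated 5′ end of the gene and ends 200 bp after it.

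Thresholded summits were found at snoRNA genes more often than at most other kinds of gene, and the intervals for introns and outside genes overlap. Of the 346 snoRNA genes, 83 (24.0%, Wilson 95% interval 19.8 to 28.8) had a thresholded summit in the gene or within 200 bp, against 6.63% of all other nuclear genes measured in the same way. Protein-coding genes, at 9.98%, lay below the interval of the snoRNA genes. tRNA genes, at 48.0%, lay above it. Among other noncoding genes the share was 14.0% for the snRNA genes of the spliceosome, 4.60% for miRNA genes, 8.76% for lincRNA genes, 8.81% for the type ncRNA and 0.208% for piRNA genes. Intervals here cover counting error only. No test was made, because neighbouring regions of one set of libraries are not replicates.

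By position, 37 of 169 intronic snoRNA genes (21.9%, 16.3 to 28.7) and 28 of 108 outside genes (25.9%, 18.6 to 34.9) had a thresholded summit, and the intervals overlap. The remaining class had 18 of 69 (26.1%, 17.2 to 37.5). Tiles of 500 bp, near the length of a snoRNA gene with its flanks, give the level of the surrounding DNA. A thresholded summit lay in 1.63% of all tiles, in 1.00% of those centred in an intron of a protein-coding gene and in 2.73% of those centred outside genes. Both shares of snoRNA genes were far above the tiles of their own kind.

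**Figure D1:**
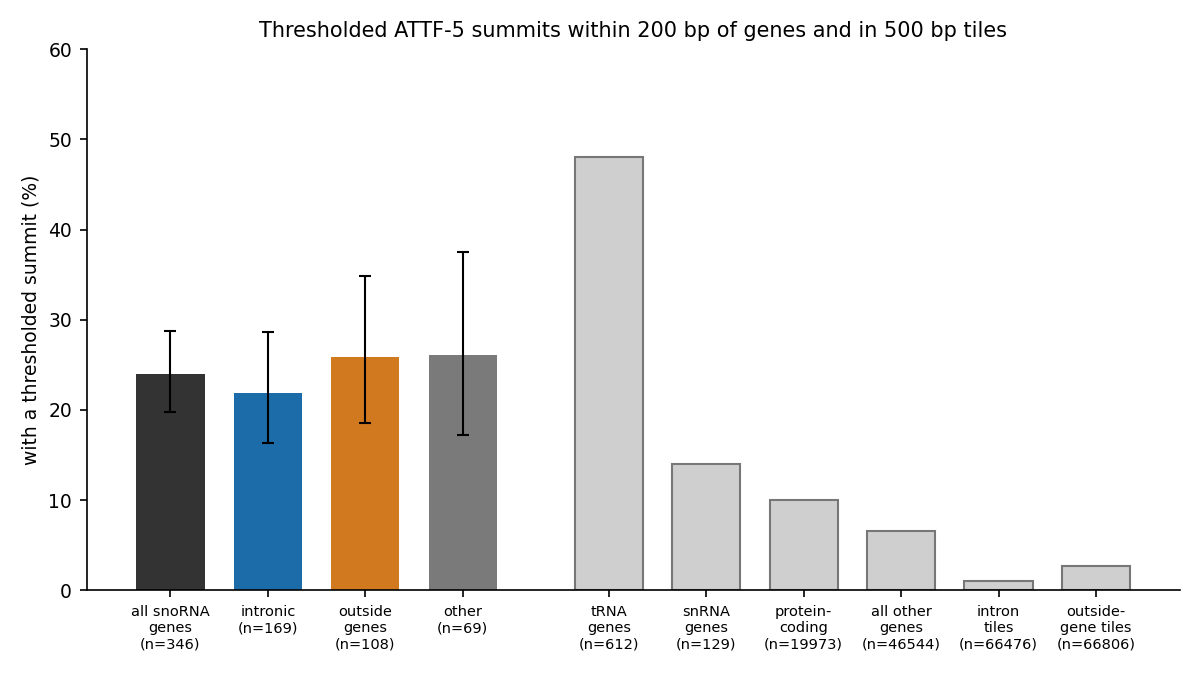
Percent of snoRNA genes, of other gene types and of 500 bp tiles with a thresholded ATTF-5 summit (genes within 200 bp); bars on snoRNA genes are Wilson 95% intervals and n is the number of genes or tiles. The 3 snoRNA classes stood at 21.9% to 26.1%, below tRNA genes at 48.0% and above snRNA genes, protein-coding genes and tiles.

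Within the intronic class the intervals for both orientations of the host overlap. A thresholded summit was found at 30 of 142 snoRNA genes on the strand of the host (21.1%, 15.2 to 28.6) and at 7 of 27 on the other strand (25.9%, 13.2 to 44.7). Of the genes outside both main classes, 9 of 16 that overlap only a noncoding gene or pseudogene had one (56.2%, 33.2 to 76.9), against 9 of 53 that meet a protein-coding exon (17.0%, 9.20 to 29.2). Shorter snoRNA genes had summits more often: 36 of 95 of up to 100 bp (37.9%, 28.8 to 47.9), 31 of 141 of more than 100 and up to 150 bp (22.0%, 15.9 to 29.5) and 16 of 110 over 150 bp (14.5%, 9.16 to 22.3). By chromosome the share lay between 18.5% and 31.0% on the autosomes and was 9.09% on X, 3 of 33 genes, with an interval of 3.14 to 23.6. Shares of all genes by chromosome were not counted, so the value on X is not shown to be particular to snoRNA genes.

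In the weaker lists, too, the share at snoRNA genes was above that of the whole set of other nuclear genes, with less contrast. That set of 46544 genes holds 15363 piRNA genes, of which 0.208% had a thresholded summit. Shares by gene type were not counted in the weaker lists. How far piRNA genes lower the share of the set there is not known, and an excess over protein-coding genes is not shown. In the pooled list 171 snoRNA genes (49.4%) had a summit, against 29.7% of all other nuclear genes. Replicate 1 had one at 178 (51.4%), against 30.6% of other genes, and replicate 3 at 165 (47.7%), against 31.6%. Both replicates had a summit at 135 snoRNA genes (39.0%, 34.0 to 44.3), against 22.9% of other genes. The intronic class had 63 of 169 in both replicates (37.3%) and the class outside genes 43 of 108 (39.8%).

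Of the 83 genes with a thresholded summit, 82 had summits within 200 bp in both replicates. The exception, F26D10.24 in an intron of hsp-1, a heat shock protein 70 gene, had signal 62.1 in replicate 3. It had no summit within 200 bp in replicate 1, and summits farther away were not looked at. Of the 263 genes with no thresholded summit, 53 had summits in both replicates, 72 in 1 replicate, 6 in the pooled list alone and 132 in none of the lists. Of the 53, 8 had no summit in the pooled list as used here. Among the 8 was F38E11.14, in an intron of cng-3, with 147 in replicate 1 and 74.4 in replicate 3. Another was F12F6.11, outside genes, with 72.6 in replicate 1 and 57.5 in replicate 3. Both were named after their values were seen. Of the 45 with a pooled summit, F48A9.6, in an intron of let-607, had the highest pooled signal, with 33.8 in replicate 1, 55.2 in replicate 3 and 83.9 in the pooled list. K04D7.17, ZK185.9, W04D2.7 in inx-11, a gap junction gene, and M03D4.78 followed at 80.7 to 83.2 in the pooled list. These 5 pooled values lay under the lowest signal of the thresholded list, 89.6.

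The 84 distinct thresholded summits at snoRNA genes made up 2.52% of that list. M7.15 and F25H2.15 had 2 summits each, and the neighbouring genes C51F7.3 and C51F7.4 shared 1. C51F7.4 is annotated just before C51F7.3 on the same strand, so the box pair printed for C51F7.3 lies inside C51F7.4. The signal at the 83 genes had a median of 212 (range 92.9 to 583), against 143 for the whole list, which reached 2844. It was 182 for intronic genes (92.9 to 583), 212 outside genes (108 to 444) and 241 in the remaining class (95.2 to 478), ranges that overlap almost fully. The strongest snoRNA summit ranked 65 of 3331. The snoRNA loci as a group were above the middle of the list, and none ranked above 65. At all 83 genes the thresholded and pooled signals were equal.

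The strongest intronic locus was ZK994.7, inside pxn-1, a peroxidasin gene. Its signal was 347 in replicate 1 and 241 in replicate 3, and 583 in the thresholded list. C51F7.3, in frm-7, a FERM domain gene, had 297 in replicate 1 and 187 in replicate 3. T03F7.8, in cutl-18, a cuticlin-like gene on the other strand, had 276 in replicate 1 and 158 in replicate 3. All 3 were higher in both replicates than every other intronic snoRNA gene. B0334.12 in twk-5, a potassium channel gene, had 198 in replicate 1 and 130 in replicate 3, and its summit lay past the 3′ end of the snoRNA. C10C6.8 in catp-8, a cation ATPase gene, had 194 in replicate 1 and 130 in replicate 3. Then followed F55A11.10 in F55A11.6, D1046.6 in cfim-2, a gene of pre-mRNA 3′ end cleavage, and ZK484.9 in haf-9, an ABC transporter gene, with 305 to 318 in the thresholded list.

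Outside genes, F09G2.14 had 243 in replicate 1 and 208 in replicate 3, at a summit that is also in the promoter window of attf-2, another AT-hook gene. F59C6.15 had 223 in replicate 1 and 215 in replicate 3. W03C9.9 had 262 in replicate 1 and 159 in replicate 3, with no protein-coding promoter window at its summit. These 3 led the class. ZK265.10, F32E10.10, Y53F4B.47, M7.15, Y75B12B.12, C36E8.11 and T06C12.16 had 284.0 to 326 in the thresholded list. At M7.15 the strongest summit within 200 bp had 84.2 in replicate 1 and 173 in replicate 3. Replicate 1 had 1 summit there and replicate 3 had 2, so these values may belong to different summits. Its strongest thresholded summit lay 171 bp upstream of the snoRNA. It was in the promoter windows of klc-1, a kinesin light chain gene, and let-70, a ubiquitin-conjugating enzyme gene. The summit at C36E8.11 was in the promoter window of tif-1A, a gene of RNA polymerase I initiation.

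In the remaining class C51F7.4 shared the summit of C51F7.3. T19B4.8 had 228 in replicate 1 and 158 in replicate 3. F39B2.14, with 201 in replicate 1 and 175 in replicate 3, had its summit in the promoter window of rps-26, a ribosomal protein gene, and tmem-107. C02F5.15 had 183 in replicate 1 and 177 in replicate 3, and lay near fbxl-1, an F-box gene. Y23H5B.10, F07A11.15 and T02E1.9 completed the 25 strongest, at 280 to 287 in the thresholded list. At F07A11.15 the summit lay inside the snoRNA gene.

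**Figure D2:**
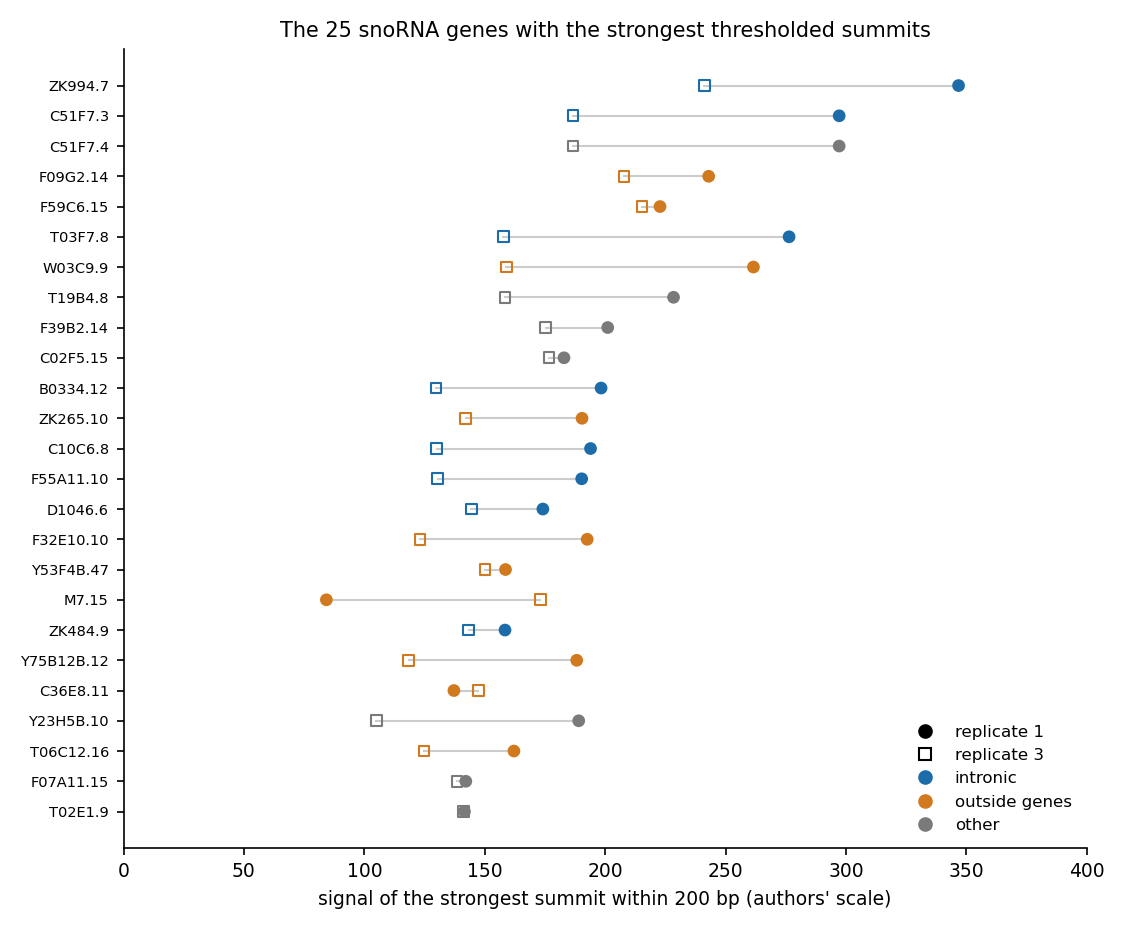
Signal of the strongest summit within 200 bp in replicate 1 (filled circles) and replicate 3 (open squares) for the 25 snoRNA genes with the highest thresholded signal, coloured by position class. Replicate 1 was higher at all but M7.15 and C36E8.11, and ZK994.7 led in both. At M7.15 the values may belong to different summits.

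Across the 82 genes with a summit in both replicates, the signal in replicate 1 exceeded that in replicate 3 by a median log2 ratio of 0.47 (SD 0.43, range −1.11 to 1.22), and 73 genes were higher in replicate 1. For these loci the signal had a median of 116 in replicate 1 and 85.5 in replicate 3. The strongest 3331 regions of each replicate had medians of 77.8 in replicate 1 and 70.6 in replicate 3, so the scales differ in the same direction, by less. Replicate 1 was the higher one at 34 of 36 intronic genes, 22 of 28 outside genes and 17 of 18 of the remaining class. The strongest summit within 200 bp was taken in each replicate, so the values compared at a gene can come from different summits.

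**Figure D3:**
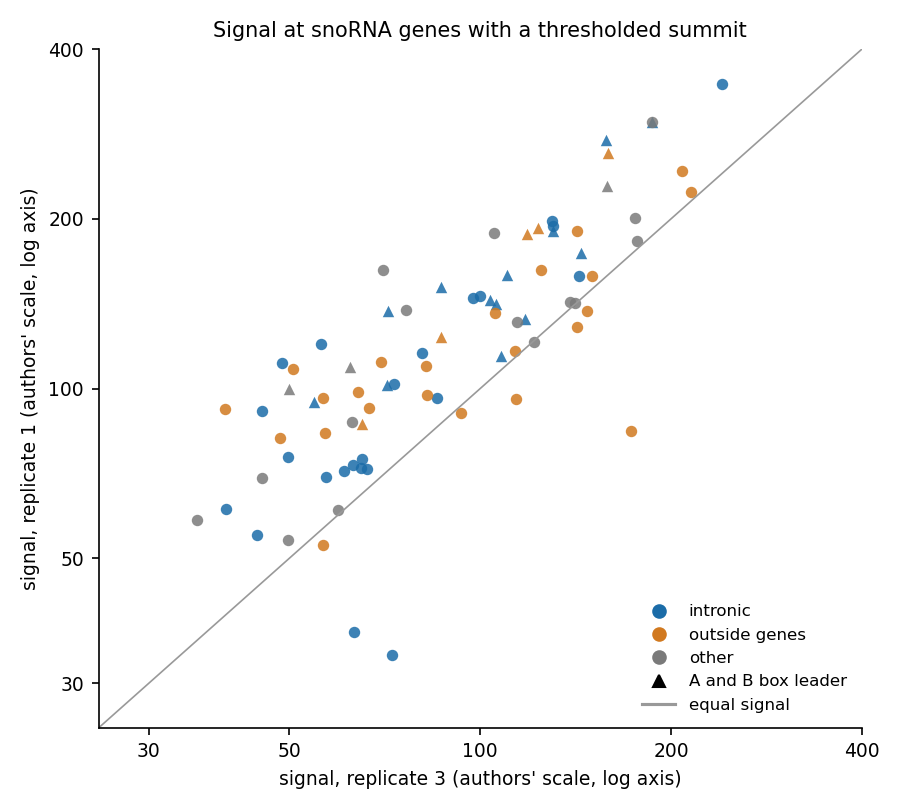
Signal in replicate 1 against replicate 3 for the 82 snoRNA genes with a thresholded summit and a summit in both replicates, both axes logarithmic, coloured by position class, with triangles for genes with an A and B box leader. Of the points, 73 lie above the line of equal signal. The genes were taken from a list thresholded on reproducibility, so these points are no measure of agreement between replicates.

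The summits lay mostly just upstream of the snoRNA. Of the 83 genes, 61 had the strongest summit upstream of the annotated 5′ end, 51 of them within 100 bp (61.4% of all, 50.7 to 71.2). Another 15 had it inside the gene and 7 past the 3′ end. The median position was 32 bp upstream, with quartiles at −57 and 5.5 bp from the 5′ end. Intronic genes had a median of −21 bp with 24 of 37 within 100 bp upstream (64.9%, 48.8 to 78.2), and those outside genes −50 bp with 16 of 28 (57.1%, 39.1 to 73.5). At the 200 bp limit, the genes just inside were C24A1.8, C02F5.15 and W06H8.17, at 182, 169 and 151 bp from the nearest summit. Those just outside were Y43B11AR.7, F17C11.24 and F54E7.10, at 211, 245 and 247 bp.

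**Figure D4:**
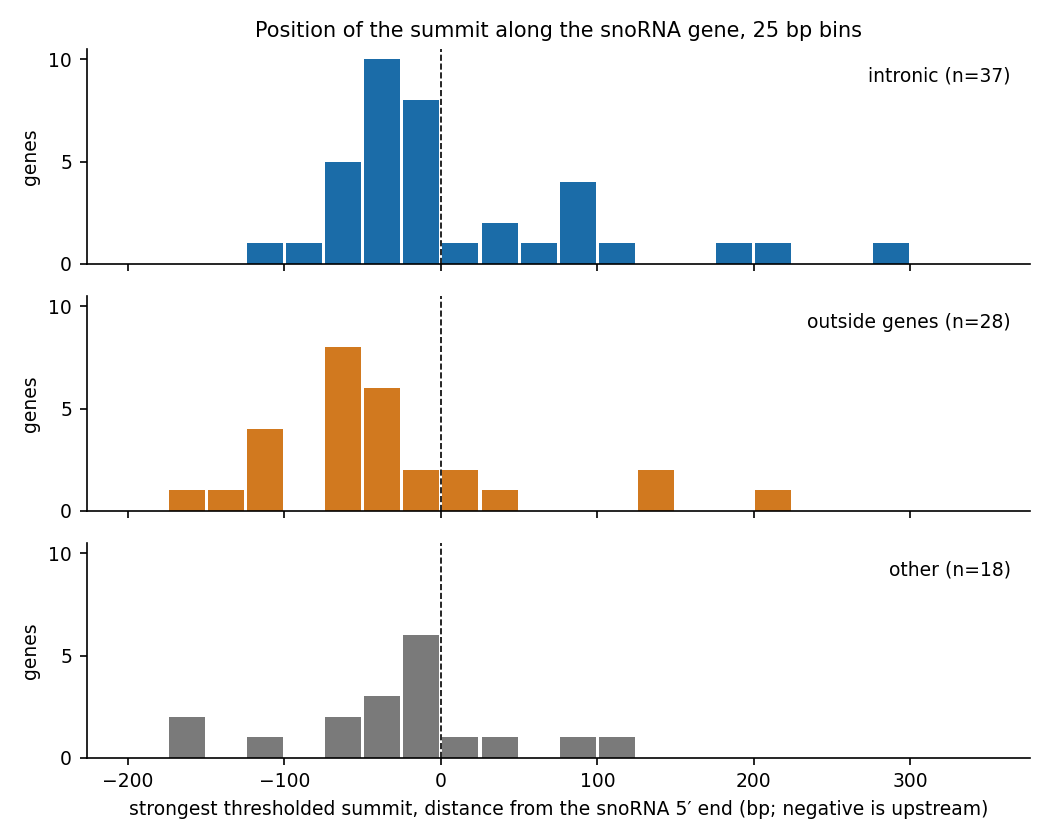
Number of snoRNA genes by distance of the strongest thresholded summit from the 5′ end of the snoRNA (bp, negative is upstream), in 25 bp bins, for the 37 intronic genes, the 28 outside genes and the 18 others. In each class most summits stood within 100 bp upstream of the dashed line at the 5′ end.

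Few of the intronic summits lay in promoter windows of protein-coding genes. The windows use only the outermost annotated 5′ end of each protein-coding gene. Internal transcript starts and promoters of noncoding genes were not covered. The strongest summit lay in a promoter window at 3 of 37 intronic genes (8.11%, 2.80 to 21.3), against 13 of 28 outside genes (46.4%, 29.5 to 64.2). Of the snoRNA genes whose extended locus met no promoter window, 52 of 223 had a thresholded summit (23.3%, 18.2 to 29.3), close to the 31 of 123 whose locus met one (25.2%, 18.4 to 33.5). Away from these promoter windows, 28 of 111 intronic genes (25.2%, 18.1 to 34.0) and 14 of 62 outside genes (22.6%, 14.0 to 34.4) had one. Where the locus met a promoter window, the order of the classes was the other way, with 9 of 58 intronic genes (15.5%, 8.38 to 26.9) and 14 of 46 outside genes (30.4%, 19.1 to 44.8), and the intervals overlap. Tiles away from promoter windows had one in 0.867% of cases, in 0.847% where centred in an intron and in 1.26% where centred outside genes. Of the 1440 thresholded summits outside promoter windows, 58 were at snoRNA genes (4.03%).

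A second site at the promoter of the host gene was seen less often where the intronic snoRNA had a summit than where it had none, with overlapping intervals, and in both cases more often than at protein-coding promoters in general. Another thresholded summit lay in the promoter window of the host at 11 of the 37 intronic genes with a summit (29.7%, 17.5 to 45.8) and at 62 of the 132 without (47.0%, 38.7 to 55.4), against 12.3% of the promoter windows of all protein-coding genes. The 37 genes lay in 37 different hosts and the 132 in 113. The 47.0% and its interval therefore count some host promoters more than once, unlike the 12.3%. Genes with a summit lay at a median of 1877 bp from the 5′ end of the host (254 to 16071), against 1528 bp for those without. M106.6, in mix-1, a condensin gene, was the farthest, with 144 in replicate 1 and 103 in replicate 3. The lowest thresholded signal of the class, 92.9, was at F53G12.12 in rpl-7, a ribosomal protein gene, with 61.2 in replicate 1 and 39.7 in replicate 3. F59G1.14 in cgt-3 and F01D5.12 in F01D5.10 followed, at 97.8 and 97.9, and then C16A3.11 in rps-13, another ribosomal protein gene, at 104.

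The A box and B box pair shown above occurred in the 100 bases before 22 of the 346 snoRNA genes (6.36%, 4.24 to 9.44). It was found in 4 of 19973 protein-coding leaders (0.0200%), in none of 612 tRNA leaders, whose boxes lie inside the gene, in none of 129 snRNA leaders, and in 0.0663% of all 100-base windows of the nuclear genome on both strands. Of the 22 genes, 21 had a thresholded summit (95.5%, 78.2 to 99.2), against 62 of the 324 without the pair (19.1%, 15.2 to 23.8). All 13 intronic genes and all 5 outside genes with the pair had one. A stricter B box (GTTCNANNC) left 18 genes, of which 17 had a summit. Counted singly, and with these 22 genes included, the A box stood before 44 genes, of which 32 had a summit (72.7%), and the B box before 51, of which 30 had one (58.8%).

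The 13 intronic genes were C51F7.3, T03F7.8, F55A11.10, D1046.6, C27H6.5, W08G11.6, T08B2.13, M106.6, F11A10.9, C04G6.12, Y43F8C.22, T24H7.6 and Y71F9AM.7. Of these, 11 lay on the strand of the host and 2 on the other. The 5 outside genes were W03C9.9, F32E10.10, Y75B12B.12, F30H5.4 and T10B9.11. The rest were T19B4.8, Y39G10AR.24, ZK546.18 and Y59E1B.14, the last on X and the exception, with a summit of signal 16.4 in replicate 1 alone. At the 21 genes the thresholded signal had a median of 247 (144 to 478). It was 259 at 20 genes without the pair whose summit was in a promoter window and 172 at the 42 with neither.

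The boxes had a regular place. The A box started 45 to 99 bases before the snoRNA (median 60) and the B box 9.0 to 44 bases before it (median 14). At 20 of the 21 genes with one, the summit fell between 10 bases before the start of the A box and the end of the B box. The exception was T24H7.6, with its summit 34 bases inside the snoRNA. The span rests on the box pair, which was chosen after leaders of genes with summits had been read. No tRNA or snRNA gene was annotated within 200 bp of any snoRNA gene. Pseudogenes were not part of that count, and the box pair genes D1046.6 and T08B2.13 each overlap an annotated pseudogene.

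**Figure D5:**
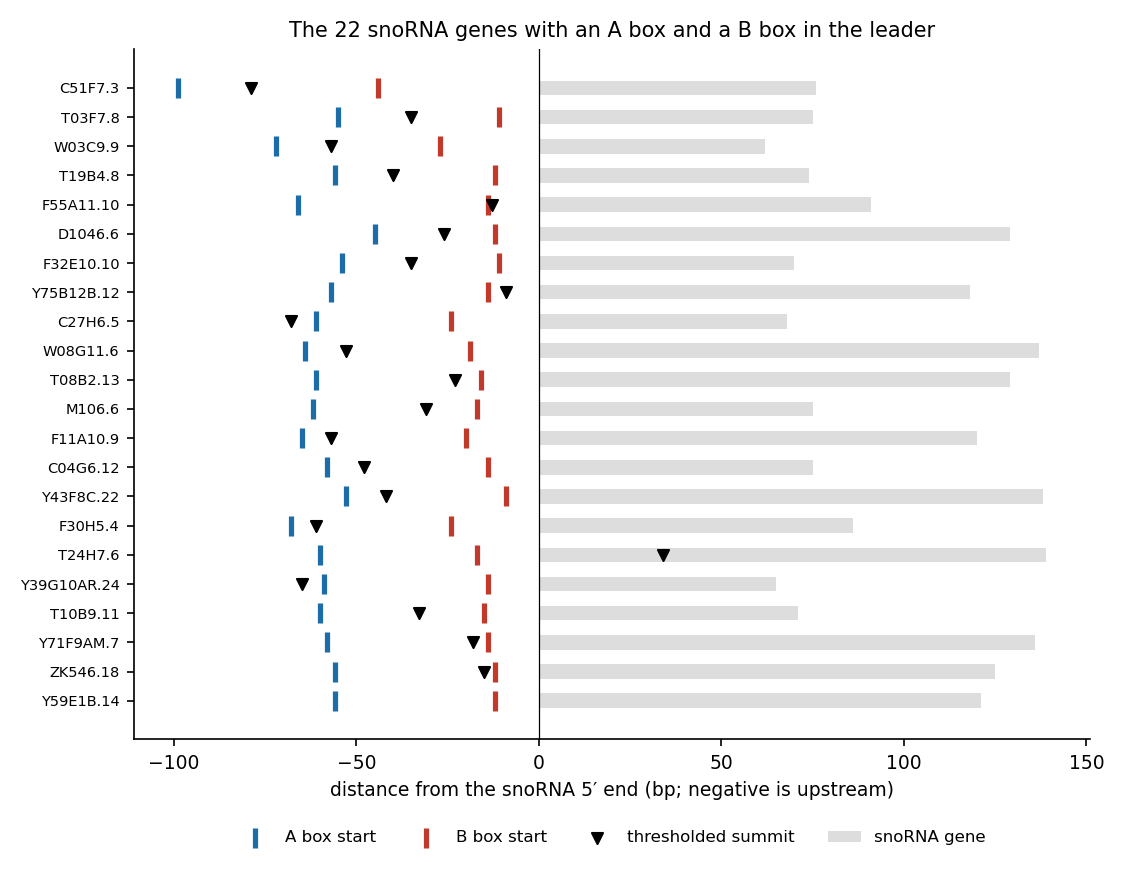
Positions of the A box start, the B box start and the strongest thresholded summit relative to the 5′ end of the snoRNA (bp, negative is upstream) for the 22 genes with the box pair, ordered from the strongest thresholded signal at the top; grey bars are the snoRNA genes. Summits stand over the leader at 20 of the 21 genes with one, and Y59E1B.14 has none.

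The letters GGTTCGA, the core of a tRNA B box, were searched over each gene and its 200 bp flanks. They occurred on the snoRNA strand at 19 genes, of which 10 had a thresholded summit (52.6%, 31.7 to 72.7), and on the other strand at 9, of which 0 had one (upper bound 29.9%). They occur in 1.93% of 530-base windows of the nuclear genome, against 5.49% of snoRNA loci on the snoRNA strand and 2.60% on the other.

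A run of TTTT, letters at which RNA polymerase III can stop, stood within 30 bases after the 3′ end more often at genes with a summit. Whether the run acts as a stop at these genes was not tested. It was present at 58 of 83 with a thresholded summit (69.9%, 59.3 to 78.7) and at 125 of 263 without (47.5%, 41.6 to 53.6). In the intronic class it was present at 31 of 37 with a summit (83.8%, 68.9 to 92.3) and at 69 of 132 without (52.3%, 43.8 to 60.6). Outside genes the numbers were 15 of 28 (53.6%) and 29 of 80 (36.2%), with overlapping intervals. Of the 22 genes with the box pair, 20 had TTTT. Nearly all of the 22 also had a summit, so they raise the share at genes with one. The shares without them were not counted. The run followed 98.9% of tRNA genes, 49.4% of protein-coding genes and 38.8% of snRNA genes, and was in 36.1% of 30-base windows of the genome. The share at snoRNA genes without a summit was near the protein-coding level.

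Letters typical of both snoRNA families occurred among the loci with summits. The lines below give a gene of each with the box pair in its leader, followed by 30 bases after its 3′ end, from the same RefSeq sequence. In W03C9.9 capitals mark the box C (NTGATGA), the box D (CTGA) and the run of T, and in W08G11.6 they mark the ACA near the 3′ end and the run of T.
W03C9.9, II:11960898-11960989, + strand: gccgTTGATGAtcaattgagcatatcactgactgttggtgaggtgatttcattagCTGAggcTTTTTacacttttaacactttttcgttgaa
W08G11.6, V:16370219-16370385, + strand: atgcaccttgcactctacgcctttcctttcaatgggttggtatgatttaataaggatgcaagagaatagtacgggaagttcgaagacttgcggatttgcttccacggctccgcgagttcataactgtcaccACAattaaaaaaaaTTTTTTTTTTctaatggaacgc
W03C9.9 lies outside genes, and W08G11.6, in an intron of W08G11.3, had 133 in replicate 1 and 118 in replicate 3. An ACA at 3 bases before the 3′ end, with a tolerance of 2, occurred at 21 of the 83 genes with a summit (25.3%) and at 64 of the 263 without (24.3%), shares that lie close together. Box C within the first 30 bases and box D within the last 30 together occurred at 15 genes, of which 7 had a thresholded summit (46.7%, 24.8 to 69.9). Box D letters, counted with or without box C, occurred at 36 of 83 with a summit (43.4%, 33.2 to 54.1) and at 55 of 263 without (20.9%, 16.4 to 26.2). The annotation used gives no snoRNA family names, so the families are read here only from these letters. Shares of box C, box D and ACA letters in other genes or in windows of the genome were not counted. How often such letters occur without a snoRNA is therefore not known here.

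The DNA at these summits was less rich in A and T than at other summits. With 50 bases on either side of the summit, the AT content had a median of 45.5% at the 83 snoRNA genes (range 30.7 to 66.3), against 53.5% at the other 3247 thresholded summits (24.8 to 84.2) and 64.6% in the nuclear genome. It was 44.6% at the 21 genes with the box pair, 47.5% at those without it in promoter windows and 46.0% at those with neither. The snoRNA genes themselves had a median of 55.9% with a thresholded summit and 60.6% without. The part of base composition in the counts was not tested.

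Outside the 22 genes with the box pair and away from promoter windows, 37 of 208 snoRNA genes (17.8%, 13.2 to 23.6) still had a thresholded summit. ZK994.7, the strongest, is one of these. From every snoRNA gene the median distance to the nearest thresholded summit was 2660 bp, against 341 bp for tRNA genes, 18246 bp for snRNA genes and 10527 bp for protein-coding genes. It was 1492 bp for intronic snoRNA genes and 3060 bp for those outside genes.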

How the data were processed

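The authors deposited 1 narrowPeak list per replicate, a pooled list and a thresholded list. Replicate lists come from 1 replicate and a control, per the labels, and the thresholded list by the irreproducible discovery rate, in ce11, whose sequence is that of WBcel235. The peak caller is not stated in the labels. The deposited signal of each region was used as given, and the deposited −log10 q only for description.

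Genes came from Ensembl release 115 and sequence from RefSeq. A gene had a summit when the summit lay in it or within 200 bp; its strongest was kept. No deposited region ran past a chromosome end. Promoter windows ran from 1000 bp upstream to 200 bp downstream of protein-coding 5′ ends. Shares carry Wilson 95% intervals. Python 3.11.15, pandas 2.3.3 and scipy 1.17.1 were used, and the code was tested on simulated data. Named genes were the 25 with the strongest thresholded signal, at least 5 per class, 5 in both replicates below the threshold, and 3 on each side of the 200 bp limit; other genes were named for a box pair, a host or a single count after their values were seen. The members and lists were chosen with earlier results of these data known. The box pair, the stricter B box and the count away from promoter windows were added after the data were seen.

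Other settings were the stronger peaks, each replicate alone, the pooled list's strongest regions, summits near a stronger one dropped, other extensions, any shared base, regions near attf-5 and unc-119 left out, and other host definitions.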

Additional observations from a re-analysis of the deposited data

How the results depend on the processing

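With no extension, 17 of 346 snoRNA genes had a thresholded summit, 7 of them intronic and 6 outside genes, with a median signal of 137; 41 had a pooled summit and 20 one in both replicates, since most summits lie upstream of the gene. With peaks of signal above the median, 24 of 169 intronic genes (14.2%) and 24 of 108 outside genes (22.2%) were counted, a wider gap than with all peaks, and the median signal was 246. Loci that met no promoter window, a setting added after the data were seen, held 52 genes with a summit among 223. Using the strongest regions of 1 replicate without the other, the count was 88 to 90, with 38 to 40 intronic and 30 to 33 outside genes. The share in promoter windows was then 30.7% to 31.1%, and the median signal 82.3 to 111 on the scale of the replicate lists. Extensions of 100 and 500 bp gave 73 and 103 genes. Dropping summits near a stronger one, taking the strongest pooled regions, and leaving out 50 kb around unc-119 and attf-5 each gave 83. No paired analysis was possible because there is 1 group. Read depth is unknown, so a locus with no summit may still hold signal under the lists' limits.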
